A study of Mus musculus with 45 samples.

Results

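Rimbp2 and 9 further genes of the presynaptic active zone were followed through 3 brain regions of adult Shank3-mutant mice, namely cortex, hippocampus and striatum. The set was a fixed list, Rimbp2, Rims1, Rims2, Rims3, Bsn, Pclo, Erc1, Erc2, Unc13a and Unc13b, and all 10 were present among the 18135 genes measured. Rimbp2 was chosen by its normalized counts, which were above WT in the homozygous mutant striatum and not in the heterozygous striatum or the other regions, so its values are given as a description without a test, and the tests below concern the other 9 genes. The samples came from male C57BL/6J mice, 13 weeks of age per the labels, of 3 genotypes: WT mice with intact Shank3, Shank3-HT mice heterozygous for a deletion of Shank3 exons 14 to 16, and Shank3-HM mice homozygous for it. For the homozygotes the labels use the word knock-out, and the column names of the deposited table carry the letters KI. Each of the 9 combinations of region and genotype held 5 samples, 45 in all, and the labels do not say whether equal sample numbers in different regions came from the same mouse. The cortex samples were of prefrontal cortex. Values are normalized counts, the estimated read counts per gene that the authors divided by normalization factors.

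The active zone is the patch of the presynaptic membrane where synaptic vesicles dock, are primed and fuse. RIM proteins tether vesicles and, through RIM-binding proteins such as RIM-BP2, the product of Rimbp2, hold calcium channels close to the release sites. Munc13 proteins prime vesicles for fusion, ELKS proteins bind RIMs and other scaffolds, and Bassoon and Piccolo are the giant scaffolds that line the site. Shank3 itself is a scaffold of the other side of the synapse, the postsynaptic density of excitatory synapses. In a tissue sample, transcripts of these genes come mainly from the neurons whose cell bodies lie in the region, not from the terminals of neurons elsewhere, and a lower number of expressing cells cannot be told apart from less RNA per cell.

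Rimbp2 (ENSMUSG00000029420) lay on the minus strand of chromosome 5 from 128757791 to 128953486 in GRCm38, a span of 195.7 kb with 6 coding transcripts in GENCODE. RefSeq start-site windows, 250 bases before to 50 after the annotated start, were at hand for 9 of the 10 genes in GRCm38.p6, and Rims2 had no entry. Shown are the windows of Rimbp2, at chr5:128953437-128953736 on the minus strand, and of Bsn and Pclo, the members whose levels varied most like it over the 45 samples, at chr9:108190334-108190633 on the minus strand and chr5:14514668-14514967 on the plus strand. Capitals mark letters searched for on both strands, GGGCGG (a GC box), the palindromic core of the NRF1 motif, TGACGTCA, CACGTG and CAGCTG.
Rimbp2: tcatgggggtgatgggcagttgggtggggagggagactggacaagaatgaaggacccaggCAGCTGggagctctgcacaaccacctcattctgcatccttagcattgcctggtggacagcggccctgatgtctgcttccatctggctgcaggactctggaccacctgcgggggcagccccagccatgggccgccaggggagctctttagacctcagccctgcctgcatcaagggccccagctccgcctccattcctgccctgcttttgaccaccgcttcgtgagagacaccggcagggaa
Bsn: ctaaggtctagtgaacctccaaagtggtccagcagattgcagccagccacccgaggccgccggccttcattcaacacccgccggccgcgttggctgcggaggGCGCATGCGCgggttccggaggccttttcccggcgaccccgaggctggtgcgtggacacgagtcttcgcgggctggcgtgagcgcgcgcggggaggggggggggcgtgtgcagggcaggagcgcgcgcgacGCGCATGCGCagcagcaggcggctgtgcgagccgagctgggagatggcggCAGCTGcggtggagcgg
Pclo: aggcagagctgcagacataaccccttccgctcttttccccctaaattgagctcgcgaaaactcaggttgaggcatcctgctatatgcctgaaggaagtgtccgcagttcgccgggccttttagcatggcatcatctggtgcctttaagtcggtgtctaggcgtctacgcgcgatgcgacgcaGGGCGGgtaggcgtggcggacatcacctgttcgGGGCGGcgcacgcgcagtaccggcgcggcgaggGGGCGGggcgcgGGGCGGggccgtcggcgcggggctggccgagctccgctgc
The Rimbp2 window held 1 CAGCTG and none of the other 4 motifs, at 62.67% GC and with 7 CpG dinucleotides. The Bsn window held 2 copies of the NRF1 core, 1 CAGCTG and 38 CpG dinucleotides, and the Pclo window 4 GC boxes and 35 CpG dinucleotides. Of 32851 RefSeq windows of this length, 35.66% held GGGCGG, 16.3% CAGCTG, 7.15% CACGTG, 1.79% TGACGTCA and 0.9711% the NRF1 core, with a median of 7 CpG dinucleotides and 52.67% GC. The 3 windows thus differed in these letters. Bsn and Pclo were shown because their levels ran like those of Rimbp2, so nothing about those levels is read from the letters. The matches describe the letters of these windows and are not measured binding sites.

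Shank3 transcripts checked the labels. In the cortex, Shank3 stood at 6985 to 8717 normalized counts in WT, 5748 to 6607 in Shank3-HT and 3689 to 4446 in Shank3-HM samples, and the 3 genotypes did not overlap in the hippocampus or the striatum either. Column totals of 26118607 to 29568983 reflect the normalization, so the depth of the libraries is unknown. Region markers fitted the labels except in part, most clearly in 2 libraries. Cortex Shank3-HM replicate 2 held a summed level of 12 striatal spiny projection neuron markers (among them Pde10a, Ppp1r1b, Penk and Rgs9) of 54063 against 6637 to 8320 in the other 4 of its group, and a summed level of 12 cortical projection neuron markers (led by Slc17a7, Neurod6, Neurod2, Cux2 and Tbr1) of 34137 against 56876 to 64633. Striatum WT replicate 5 held 11886 for the cortical list against 2338 to 3917 and 192551 for the spiny projection neuron list against 242259 to 260535. The cortical list was also raised in Striatum Shank3-HT replicate 3 (9397, group median 3534) and Striatum Shank3-HM replicate 1 (9290, group median 4253). These were kept where the 2 libraries that stood apart, the ones named first, were left out. The summed choroid plexus markers (8 genes, led by Ttr) were uneven in the Striatum Shank3-HT group, at 4995 to 106896, and in the hippocampus. There they ranged from 8750 to 182496 in WT, 5818 to 54216 in Shank3-HT and 12781 to 91325 in Shank3-HM samples. Where Cortex Shank3-HM replicate 2 or Striatum WT replicate 5 decides a call, turns a direction or moves a described value by over 1.5 times, the value without it, or values on leaving out single samples, stand beside it in most cases.

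Rimbp2 was highest in the cortex, intermediate in the hippocampus and lowest in the striatum of WT mice, and in the Shank3-HM striatum it stood at the hippocampal level. In the striatum, the WT samples read 3882, 4117, 3778, 4091 and 4754 normalized counts (4124 ± 379.6, mean and SD, n = 5), and the Shank3-HT samples 3774, 4202, 3892, 4797 and 4328 (4199 ± 403, n = 5). The Shank3-HM samples read 5821, 6183, 5889, 5789 and 5802 (5897 ± 164.5, n = 5). All 5 Shank3-HM samples lay above all 10 other striatal samples, at a log2 fold change from WT of 0.52, and the Shank3-HT samples interleaved with WT at 0.025. Of the 16482 genes tested in the striatum, 1.1% had all 5 Shank3-HM above all 5 WT samples, a share from which nothing is read here because this contrast chose the gene. Without WT replicate 5, the highest of its group, the log2 fold changes were 0.57 for Shank3-HM and 0.078 for Shank3-HT, and without Shank3-HT replicate 4, the highest of its group, the latter was -0.024.

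In the other regions the genotypes overlapped. Cortical samples read 6263, 7406, 6434, 7251 and 7924 in WT, 7062, 7505, 7320, 7826 and 7543 in Shank3-HT, and 7324, 6524, 8108, 8215 and 7424 in Shank3-HM mice, with log2 fold changes of 0.084 and 0.093. The lowest cortical Shank3-HM value was that of replicate 2, which also held the striatal markers, and without it the log2 fold change was 0.14. Leaving out 1 sample at a time, the cortical values ran from 0.042 to 0.13 in Shank3-HT and from 0.051 to 0.14 in Shank3-HM mice, both lowest without WT replicate 1. Hippocampal samples read 5335, 5419, 5923, 5028 and 5703 in WT, 5446, 6055, 5930, 5684 and 5726 in Shank3-HT, and 5565, 5921, 5486, 5666 and 5577 in Shank3-HM mice, with log2 fold changes of 0.075 and 0.044, and of 0.044 and 0.013 without WT replicate 4. Ordered by mean, the 9 groups ran from Cortex Shank3-HM (7519) through Cortex Shank3-HT (7451) and Cortex WT (7056) to Striatum Shank3-HM (5897), Hippocampus Shank3-HT (5768), Hippocampus Shank3-HM (5643) and Hippocampus WT (5482), and ended with Striatum Shank3-HT (4199) and Striatum WT (4124). Neighbours in that order overlapped in their sample ranges except at 2 steps, from Cortex WT to Striatum Shank3-HM and from Hippocampus WT to Striatum Shank3-HT.

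**Figure D1:**
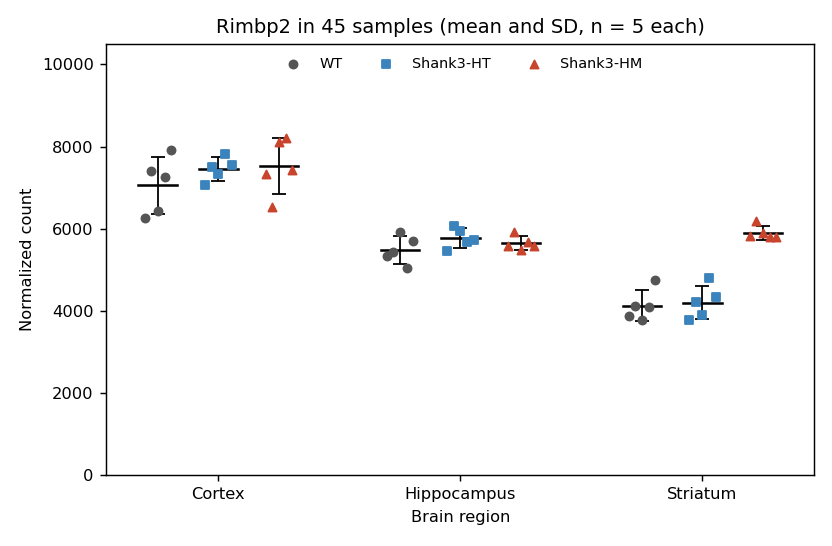
Normalized counts of Rimbp2 (vertical axis, from 0) in each of the 45 samples, by region and genotype, with the mean and SD of each group of 5. The 5 striatal Shank3-HM samples, 5789 to 6183, lie above all other striatal samples and beside the upper hippocampal ones.

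The region differences of Rimbp2 are likewise given without a test, since the low striatal level outside the Shank3-HM mice was part of its choice. In Shank3-HT mice the striatum lay below the cortex by a log2 difference of -0.83 and below the hippocampus by -0.46, and the hippocampus below the cortex by -0.37. In WT mice the mean of the cortex was 1.711 times that of the striatum, and in Shank3-HM mice 1.275 times, or 1.779 and 1.317 times without the 2 libraries that stood apart.

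Cell type markers were set beside the Rimbp2 values of the striatum. On a scale from the WT striatum mean (0%) to the WT cortex mean (100%), Rimbp2 of the Shank3-HM striatum stood at 56.79% to 70.23%, whereas the summed cortical projection neuron list of the same samples stood at -5.904% to 7.655%. The list thus overlapped with that of the WT striatum, whose samples stood at -4.602% to 12.23%. Among WT striatal samples, replicate 5 was highest in both quantities, at 21.49% for Rimbp2 and 12.23% for the list. Among Shank3-HT striatal samples, replicate 4 was highest for Rimbp2 (22.95%) with the list at -1.917%, and replicate 3 highest for the list (7.845%) with Rimbp2 at -7.941%. None of the 12 cortical markers was at 0 in all samples of a striatal group. The spiny projection neuron list in the Shank3-HM striatum summed to 226407 to 252342, within the WT range of 192551 to 260535, whose low end is replicate 5. Without that library the WT samples were 242259 to 260535, and 4 of the 5 Shank3-HM samples lay below all of them. Of the 12 spiny projection neuron markers, 1 had all 5 Shank3-HM above all 5 WT samples, as did 1.1% of all genes tested in the striatum. It was Tac1 (5932 to 7008 against 5189 to 5891), the precursor of the neuropeptide substance P.

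The interneuron list of 8 genes moved with Rimbp2 in the Shank3-HM striatum, with sums of 36599 to 39169 against 32802 to 33705 in WT, 114.8% of the WT mean. Of its 8 genes, 2 had all 5 Shank3-HM above all 5 WT samples, as did 1.1% of all genes tested in the striatum. The 2 were Gad1 (15361 to 17062 against 13457 to 14719) and Gad2 (13621 to 17117 against 13120 to 13556). Both encode GABA-synthesizing enzymes, which spiny projection neurons of the striatum also express. The interneuron markers Sst (3274 to 4191 against 3095 to 3784), Npy, Lhx6, Chat, Pvalb and Vip overlapped with WT. The oligodendrocyte list of 7 genes stood at 116.7% of WT in the Shank3-HM striatum (203711 to 308602 against 183271 to 243362) and at 127.9% in the Shank3-HT striatum, where Rimbp2 was not higher. The part of these marker differences in the Rimbp2 values was not tested.

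**Figure D2:**
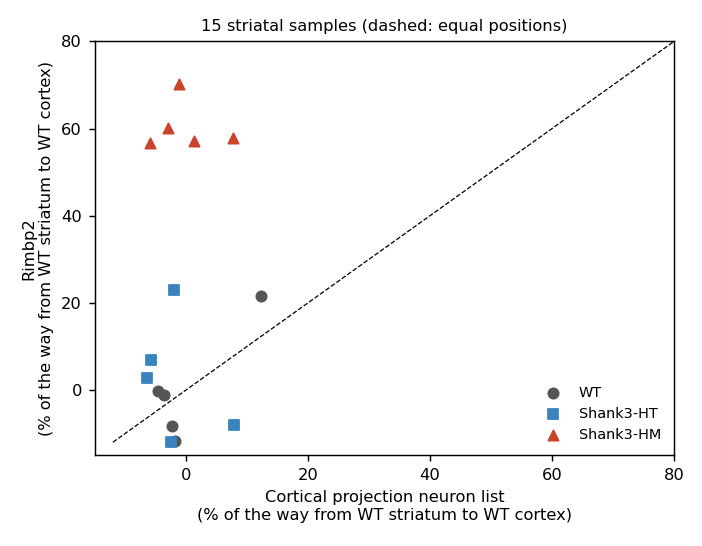
Position of each of the 15 striatal samples between the WT striatum mean (0%) and the WT cortex mean (100%), for the summed cortical projection neuron list (horizontal axis, percent) and for Rimbp2 (vertical axis, percent), with a dashed line of equal positions. The 5 Shank3-HM samples sit at 56.79% to 70.23% for Rimbp2 and at -5.904% to 7.655% for the list.

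None of the other 9 active zone genes passed an adjusted p of 0.05 (limma, adjusted over all genes tested) in any of the 6 comparisons of a mutant with WT. The share of all genes called was itself 0.00% in the cortex of Shank3-HT and 0.0121% in that of Shank3-HM mice, 0.00603% in the hippocampus of either mutant, and, in the striatum, 0.00607% for the heterozygotes and 0.182% for the homozygotes, so that 0 of 9 does not set these genes apart. At an unadjusted p under 0.05 there was 1 of the 9 in each of 3 comparisons, against 5.49% of all genes in the Shank3-HM cortex, 5.26% in the Shank3-HT hippocampus and 7.43% in the Shank3-HM striatum. The 1 in the Shank3-HM cortex, Bsn, was lost without replicate 2. There were 0 of 9 in the Shank3-HT cortex (2.68% of all genes), the Shank3-HM hippocampus (4.73%) and the Shank3-HT striatum (7.43%). For 0 of the 9 genes did the 5 mutant samples lie all above or all below the 5 WT samples. The share of all genes that did so was 0.630% and 0.800% in the cortex, 0.797% and 0.736% in the hippocampus, and 0.971% and 1.86% in the striatum, for Shank3-HT and Shank3-HM in that order. The median log2 fold change of the 9 was -0.0077 and -0.086 in the cortex, 0.073 and 0.034 in the hippocampus, and -0.053 and -0.068 in the striatum, for Shank3-HT and Shank3-HM in that order, beside medians of all genes between -0.0058 and 0.0056. Without Cortex Shank3-HM replicate 2 the median in the Shank3-HM cortex was -0.041, and without Striatum WT replicate 5 the striatal medians were -0.020 and -0.019, and without Striatum WT replicate 1 they were -0.094 and -0.080. Without Hippocampus WT replicate 1 the hippocampal medians were 0.0036 and -0.040, and leaving out 1 sample at a time the Shank3-HT cortex median ran from -0.032 to 0.038. The 1 gene called in each of the 2 hippocampal comparisons and in the Shank3-HT striatum was Shank3 itself. In the Shank3-HT striatum its adjusted p was 0.04944 (limma). Shank3 did not pass in the Shank3-HT cortex (log2 fold change -0.38, adjusted p = 0.2878, limma), although all 5 samples lay below WT. So 0 of 9 in the heterozygotes does not exclude changes of that size. Each of the 6 comparisons shares its WT samples with the other comparison of that region.

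**Figure D3:**
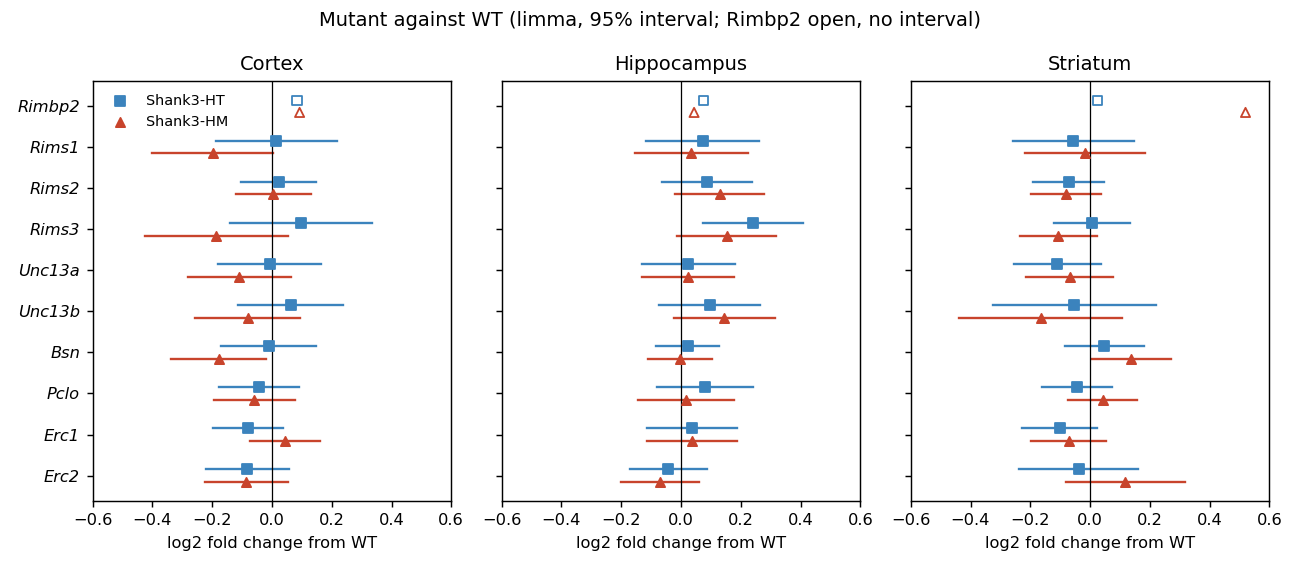
log2 fold change from WT (horizontal axis) of the 10 genes in the 3 regions, squares for Shank3-HT and triangles for Shank3-HM, with 95% intervals from limma for the 9 tested genes and open symbols without interval for Rimbp2. Rimbp2 in the Shank3-HM striatum, at 0.52, lies apart from the other 9 genes, whose striatal Shank3-HM values run from -0.17 to 0.14.

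Rims1 and Rims2 encode the long RIM proteins, which bind calcium channels, Munc13 and RIM-BP2. Rims1 in the striatum ranged from 2960 to 4225 in WT, 2791 to 4123 in Shank3-HT and 3117 to 3574 in Shank3-HM samples, with log2 fold changes of -0.056 and -0.016 that turned to 0.025 and 0.064 without WT replicate 5. In the cortex it was 8843 to 10731 in WT and 6616 to 10362 in Shank3-HM samples (log2 fold change -0.20, SE 0.096, adjusted p = 0.8775, limma), and -0.097 without Cortex Shank3-HM replicate 2, which gave the 6616. Rims2 had log2 fold changes of 0.023 and 0.0044 in the cortex, the latter 0.017 without replicate 2, and read 2928 to 3446 in the Shank3-HM striatum against 3140 to 3525 in WT.

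Rims3 encodes a short RIM made of little more than the final C2 domain. Its Shank3-HT hippocampal samples read 1891, 1686, 1571, 1895 and 1554 normalized counts against 1456, 1614, 1166, 1546 and 1513 in WT. The 2 groups overlapped, at a log2 fold change of 0.24 (SE 0.079, unadjusted p = 0.007152, adjusted p = 0.9259, limma). In the Shank3-HM hippocampus the 5 samples were 1558 to 1642, and in the Shank3-HM striatum 2098 to 2443 against 2299 to 2556 in WT.

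Bsn, which encodes Bassoon, had the lowest unadjusted p of the 9 genes in the Shank3-HM striatum. Its Shank3-HM striatal samples read 11507, 11661, 11957, 10419 and 10504 against 9809, 9536, 10152, 10663 and 10779 in WT, 3 above and 2 within the WT range (log2 fold change 0.14, SE 0.063, unadjusted p = 0.04278, adjusted p = 0.6575, limma). Without WT replicate 5 it was 0.16. In the Shank3-HM cortex Bsn read 20271, 14979, 20339, 19797 and 19959 against 20701, 21504, 19671, 22705 and 22724, a log2 fold change of -0.18 (unadjusted p = 0.03075, adjusted p = 0.8775, limma). Without Cortex Shank3-HM replicate 2, the sample at 14979, it was -0.093 with an adjusted p of 0.9388. Pclo, which encodes Piccolo, read 7736 to 9056 in the Shank3-HM striatum against 7610 to 8470 in WT, a log2 fold change of 0.042 with a 95% interval from -0.074 to 0.16, 0.067 without WT replicate 5 and 0.0040 without Shank3-HM replicate 5.

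Erc1 and Erc2 encode the ELKS proteins, Erc2 the form found mainly in brain. Erc1 in the striatum was 1223 to 1386 in Shank3-HM and 1266 to 1403 in WT samples, and Erc2 4348 to 5860 and 4327 to 5036. Their log2 fold changes there were -0.072 and 0.12, the latter 0.059 without Shank3-HM replicate 5. Unc13a and Unc13b encode the priming factors Munc13-1 and Munc13-2. Unc13a in the striatum was 9061 to 10838 in Shank3-HM and 8837 to 11628 in WT samples. Unc13b read 760, 590, 595, 587 and 616 in the Shank3-HM striatum and 623, 606, 684, 629 and 1054 in WT. The 1054 belonged to WT replicate 5 and the 760 to Shank3-HM replicate 1, each the highest of its group for the cortical marker list. Its log2 fold change of -0.17 (SE 0.13, adjusted p = 0.858, limma) was -0.019 without WT replicate 5 and -0.23 without Shank3-HM replicate 1.

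**Figure D4:**
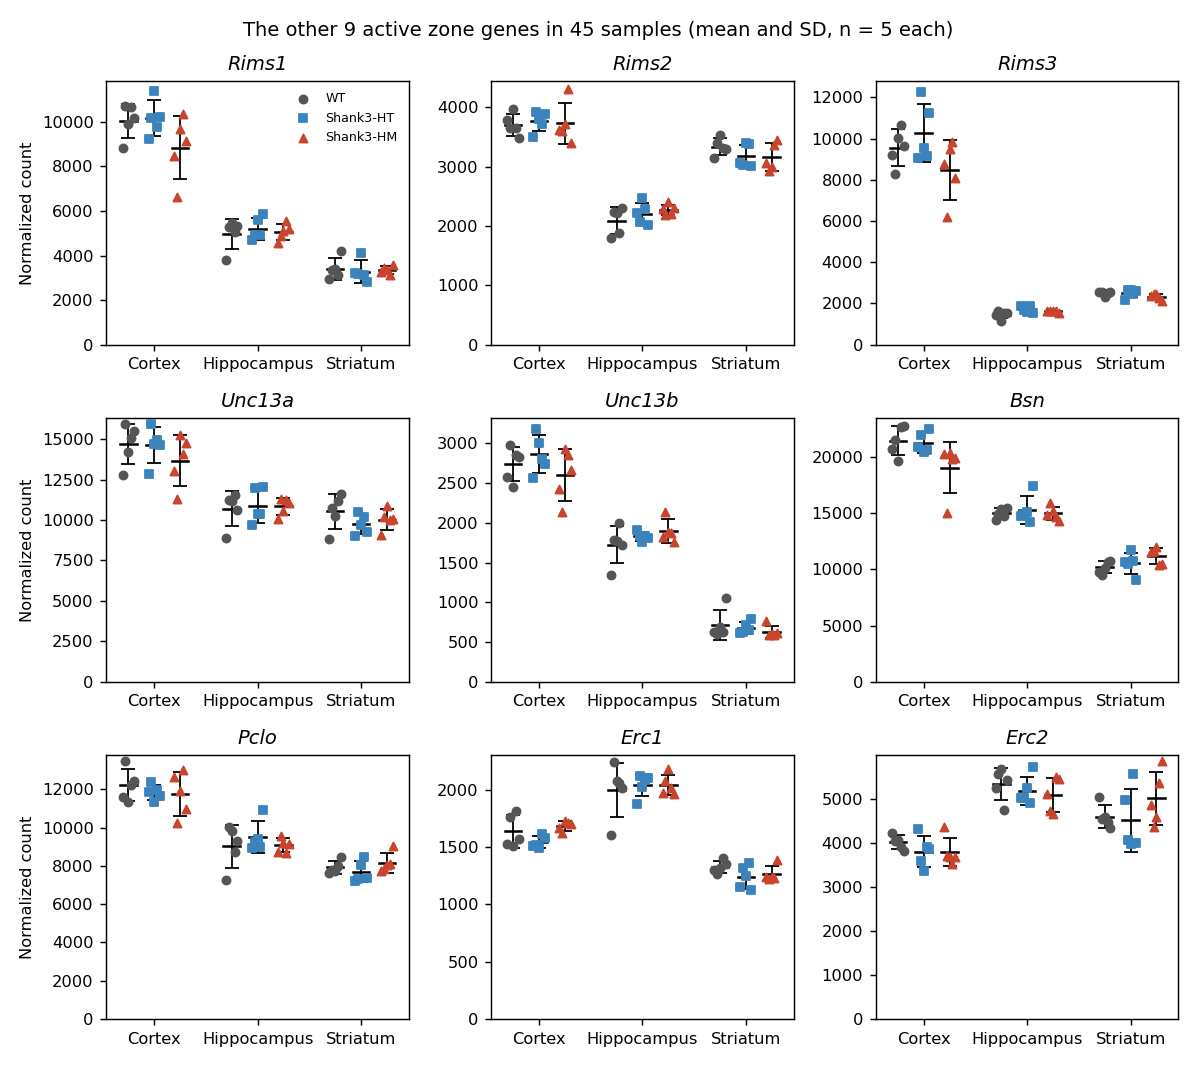
Normalized counts (vertical axes, each from 0) of the other 9 genes in the 45 samples by region and genotype, with mean and SD of each group of 5. Within a region each mutant group overlaps in range with WT for every gene, and the regions differ most for Rims3 and Unc13b.

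Whether the Shank3-HM effect differed between regions was tested as an interaction for the 9 genes. None passed an adjusted p of 0.05 (limma) in the 3 region pairs, where 0.0539% of all genes did for striatum against cortex, 0.0718% for striatum against hippocampus and 0.00% for cortex against hippocampus. At an unadjusted p under 0.05 there were 1, 2 and 1 of the 9, against 5.42%, 5.37% and 4.45% of all genes. Unc13b (-0.31) and Rims2 (-0.21) were those for striatum against hippocampus, and Rims3 (-0.34) the one for cortex against hippocampus. Without the 2 libraries that stood apart, Unc13b was -0.16 and no longer among them, Rims2, Rims3 (-0.25) and Bsn (0.16) were those for striatum against hippocampus, and there was none for cortex against hippocampus. The shares of all genes given above belong to the fit of all samples. None is given for this refit, so nothing is read from its counts. The smallest p was that of Bsn, whose Shank3-HM effect was higher in the striatum than in the cortex by 0.31 (SE 0.092, unadjusted p = 0.001374, adjusted p = 0.3956, limma), and by 0.25 with an adjusted p of 0.5924 without the 2 libraries that stood apart in region markers.

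Regions differed far more than genotypes. In WT mice, 9 of the 9 genes passed an adjusted p of 0.05 between striatum and cortex (limma), as did 59.3% of all genes. Of the 9, 8 were lower in the striatum and 1 higher, beside 29.3% and 30% of all genes. For log2 differences beyond 1 in either direction the count was 4 of 9, against 17.8% of all genes. The 4 were Unc13b (-1.96, SE 0.11), Rims3 (-1.94, SE 0.093), Rims1 (-1.57, SE 0.10) and Bsn (-1.07, SE 0.065). Pclo (-0.63), Unc13a (-0.48) and Erc1 (-0.30) were lower by less. Rims2 (-0.15, adjusted p = 0.03543, limma) and Erc2, the one member that was higher (0.19, adjusted p = 0.03368), stood near the threshold. Rims2 lost it without any one of Cortex WT replicates 1 and 3 and Striatum WT replicates 1, 4 and 5, and Erc2 without any one of Cortex WT replicates 4 and 5 and Striatum WT replicates 1 and 3 (adjusted p up to 0.1013 and 0.1009, limma). Without the 2 libraries that stood apart, Rims2 no longer passed (adjusted p = 0.05891), and Unc13b was lower by -2.10.

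Between hippocampus and cortex, 9 of 9 genes passed, as did 46.6% of all genes. Of the 9, 7 were lower in the hippocampus and 2 higher, beside 23.3% of all genes in either direction. Rims3 showed the widest step of the set, from 8262 to 10638 normalized counts in the WT cortex to 1166 to 1614 in the WT hippocampus, a log2 difference of -2.71 (SE 0.093, adjusted p = 4.294e-26, limma). Rims1 (-1.02), Rims2 (-0.84), Unc13b (-0.67), Bsn (-0.51), Unc13a (-0.46) and Pclo (-0.45) were also lower in the hippocampus. Both ELKS genes were higher there, Erc1 by 0.28 (SE 0.062) and Erc2 by 0.41 (SE 0.080).

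Between striatum and hippocampus, 8 of 9 genes passed, as did 56.1% of all genes. Of the 9, 6 were lower in the striatum and 2 higher, beside 28.3% and 27.8% of all genes. Rims3 (0.78, SE 0.093) and Rims2 (0.68, SE 0.063) were higher in the striatum. Unc13b (-1.28), Erc1 (-0.58), Bsn (-0.56) and Rims1 (-0.54) were lower there, and Erc2 (-0.21, adjusted p = 0.02011) and Pclo (-0.18, adjusted p = 0.02191, limma) by small steps. Pclo lost the threshold without Hippocampus WT replicate 2 or 3 or Striatum WT replicate 1 (adjusted p up to 0.0891, limma), and Erc2 without Hippocampus WT replicate 3 (0.05347) and without the 2 libraries that stood apart (0.05124). Unc13a did not differ beyond its spread, at -0.024 with a 95% interval from -0.18 to 0.13. Its value moved with single samples, from -0.089 without Hippocampus WT replicate 1 to 0.038 without Striatum WT replicate 1. Rims1 thus fell in the order cortex, hippocampus, striatum, and Rims3 in the order cortex, striatum, hippocampus. Rims2 was lowest in the hippocampus, while its step from cortex to striatum stood near the threshold and was lost in some fits.

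**Figure D5:**
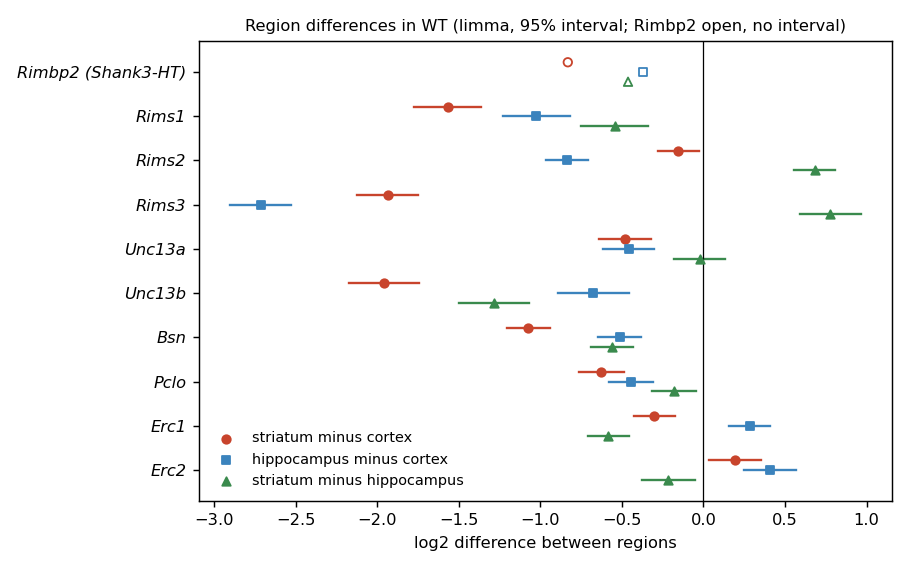
log2 differences between regions (horizontal axis) with 95% intervals from limma, in WT mice for 9 genes, and in Shank3-HT mice for Rimbp2, drawn open without interval. All Rimbp2 values are below 0, Rims3 reaches -2.71 in the hippocampus against the cortex, and Erc2 lies above 0 in both contrasts with the cortex.

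Levels of different genes were compared per kilobase of the principal GENCODE transcript. In the WT cortex the order of mean normalized counts per kb was Rims1 (1560), Rims3 (1469), Unc13a (1434) and Bsn (1347), whose neighbours overlapped in range, then Rimbp2 (1095), Rims2 (785.9), Erc2 (643.6), Pclo (608.7), Unc13b (431) and Erc1 (187.1). Erc2 and Pclo overlapped as well. In the WT hippocampus Unc13a had the highest mean (1044), overlapping with Bsn (941.8), and Rims3 the lowest (224.3), overlapping with Erc1 (228.5). Rimbp2 was in place 4 (850.4, range 780 to 919), overlapping with Erc2 (855.8) and Rims1 (771.9). In the WT striatum Unc13a again led (1027), followed without overlap by Erc2 (736.8), and Rimbp2 (639.8) and Bsn (639.2) were level. Unc13b was last (113.2), with a range of 95 to 166 that overlapped with the 144 to 160 of Erc1 (151.5). Without Striatum WT replicate 5 it was 95 to 108 and did not overlap with Erc1, and Rimbp2 (615.4) and Bsn (629.9) still overlapped. These orders rest on 1 transcript length per gene. That of Rims2 is 4719 bases with 4716 coding, so almost without untranslated sequence, against 6446 with 3237 coding for Rimbp2. The level of Rims2 per kb may therefore be overstated beside the other genes. Of the 10 genes, 3 overlap other genes of the table, Unc13a with Colgalt1 and Erc2 with Gm45645 on the opposite strand, and Pclo with Gm42446, Gm42444, Gm43662 and Gm43665 on its own strand, between which reads could be split.

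The rest of the release machinery was read from 65 further presynaptic genes, of which 64 were measured. None passed an adjusted p of 0.05 (limma) in any of the 6 mutant comparisons. At an unadjusted p under 0.05, higher and lower, there were 0 and 0 in the Shank3-HT cortex, 0 and 3 in the Shank3-HM cortex, 4 and 1 in the Shank3-HT hippocampus, 3 and 0 in the Shank3-HM hippocampus, 4 and 2 in the Shank3-HT striatum, and 2 and 2 in the Shank3-HM striatum. Over all genes the shares past that p were 2.68%, 5.49%, 5.26%, 4.73%, 7.43% and 7.43% in the same order, so that these counts lie near the background. Without the 2 libraries that stood apart, the counts were 0 and 1 and 1 and 0 in the cortex and 4 and 2 and 5 and 2 in the striatum, with 0 past the adjusted threshold, and Doc2b and Cplx3 had the smallest p in the cortex of Shank3-HT and Shank3-HM mice. No share of all genes is given for that refit, so these recounts are not set against a background. In the Shank3-HM striatum, the smallest p value was that of Git1, which encodes a scaffold that binds Piccolo (-0.14, SE 0.045, adjusted p = 0.4109, limma). In the Shank3-HT striatum they were the calcium sensor Syt2 (0.57, adjusted p = 0.566, limma) and the SNARE gene Vamp1 (0.56, adjusted p = 0.6324). In the hippocampus, Cplx3, a complexin, and Unc13c, the Munc13-3 gene, led in both mutants, with log2 fold changes of 0.75 and 0.56 in Shank3-HT and 0.60 and 0.55 in Shank3-HM mice and adjusted p values of 0.849 to 0.9259. In the cortex they were Rab3c (-0.12) and Cplx3 (0.33) in Shank3-HT, and Apba1 (-0.18) and Git2 (-0.14) in Shank3-HM mice.

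By group, median log2 fold changes in the Shank3-HM striatum were 0.00051 for 19 further active zone scaffolds, -0.026 for 10 calcium channel subunits, 0.040 for 13 genes of the SNARE and fusion machinery, 0.00038 for 11 calcium sensors and vesicle-bound regulators, and 0.064 for 11 synaptic vesicle proteins and transporters, beside 0.00072 for all genes. Between WT striatum and WT cortex, 17 of the 64 genes were higher and 39 lower past the threshold, beside 30% and 29.3% of all genes, and 16 and 39 without the 2 libraries. Among the widest steps were Slc17a7 (-4.21) and Slc17a6 (-4.02), the vesicular glutamate transporters, Doc2a (-3.60) and Stx1a (-3.05) on the lower side, and Doc2b (3.57), Sv2c (3.31), Unc13c (2.81), Cacna2d3 (1.79), Cacna2d2 (1.49), Rimbp3 (1.48) and Cacnb2 (1.42) on the higher side. The pairs Doc2a and Doc2b, and Unc13b and Unc13c, thus ran in opposite directions. The liprin gene Ppfia2 was lowest in the striatum, at -1.89 against the hippocampus, and Vamp1 (-2.14) and Cplx3 (-1.51) were lower in the striatum than in the cortex, while Syt2 was lower in the hippocampus than in the cortex by -1.71.

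The genes whose log2 values ran most like those of Rimbp2 were listed by Pearson correlation, as a description across samples that fall into 3 regions. Over the 45 samples these were 6430548M08Rik (0.8913), the corticotropin-releasing hormone receptor Crhr1 (0.8897), the carbonic anhydrase Car7 (0.8889), the ubiquitin ligase subunit Fbxw7 (0.8869) and the nuclear receptor Pparg (0.8843). All 5 were highest in the WT cortex and lowest in the WT striatum, as with Fbxw7 at 6705 to 7627, 3543 to 4395 and 2784 to 3104 normalized counts in cortex, hippocampus and striatum. Of the active zone genes, Bsn ranked 13 of 16707 (0.8643), Pclo 19 (0.8599) and Rims1 48 (0.8476), then Unc13b (0.7916), Unc13a (0.7849), Rims3 (0.6595), Erc1 (0.3685), Rims2 (0.2878) and Erc2 (-0.4345). Over the 15 striatal samples the order was another one, led by the lipoprotein receptor Scarb1 (0.9087), Hhipl1 (0.9063), the receptor gene Mas1 (0.9008), the glycolytic enzyme Pfkp (0.8929) and the neuronal pentraxin Nptx2 (0.8897), each of which was highest in the Shank3-HM group within the striatum, a pattern that the choice of Rimbp2 by its Shank3-HM striatal level fixes. Scarb1, for example, stood at 1190 to 1394 in Shank3-HM, 878 to 1093 in Shank3-HT and 998 to 1068 in WT striatal samples, and Nptx2 at 836 to 1157, 477 to 673 and 492 to 742. In these 15 samples no active zone gene exceeded the 0.4924 of Pclo, followed by Bsn (0.482), Erc2 (0.3546) and Unc13a (0.1308). Without the 2 libraries that stood apart, the same 5 genes led over the striatal samples, and Bsn, Pclo and Rims1 ranked 14, 20 and 50 over the remaining 43 samples.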

How the data were processed

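Per the labels, RNA libraries were made with a TruSeq Stranded mRNA kit and sequenced. The deposited signal values are normalized counts: the authors quantified transcripts with Salmon 1.1.0 and GC bias correction against GRCm38, imported the estimates with tximport and normalized them with DESeq2 (DESeq2 1.26.0 and R 3.6.2 per the submitters' processing notes, while the paper's methods name other versions). Whole reads could not be recovered from the steps between low values, so no count model was run and no interval from depth is given.

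Here, values were transformed as log2(value + 1). Fold changes on this scale understate those of low genes. Genes with a mean of at least 10 were fitted with limma 3.58.1 (intensity trend) in R 4.3.3, the 3 genotypes of a region together for mutant comparisons, and the 9 groups together for region contrasts and interactions, with Benjamini-Hochberg adjustment over all genes tested and a threshold of 0.05. The 9-group fit treats all samples as independent, although different regions may come from the same mice, and p-values measure the spread between these samples. Scripts were tested on simulated data. Python 3.11.15 with pandas 2.3.3 and matplotlib 3.10.9 was used. Symbols were matched for 18120 of 18135 identifiers.

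The 10 genes and the gene lists were chosen with earlier results of these data known. Named in the text are the 10 genes, Shank3, the 5 genes most correlated with Rimbp2 over 45 and over 15 samples, and, of the other presynaptic genes, those past the threshold or else the 2 with the smallest p per comparison and up to 3 per list with the widest WT region difference. Some results that this rule names are not reported here. Each choice was varied singly: the intensity trend dropped, values quantile-normalized or rescaled to one total per sample, the filter removed or set at 100, 0.1 in place of 1 as pseudocount, replicate numbers blocked, fits restricted to both groups of a comparison, and single samples omitted. Omitting 2 libraries together was added after seeing the data.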

Additional observations from a re-analysis of the deposited data

Results flagged for a closer look

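A sample was singled out where its distance from the nearest other sample of its group of 5 exceeded 0.71 of the range of the group (Dixon's 95% limit). Of 114 groups examined, 17 held such a sample, where chance gives about 1 in 20. Both libraries that stood apart in region markers were among them. Cortex Shank3-HM replicate 2 was lowest for the cortical projection neuron list (34137) and for Bsn (14979) and highest for the striatal spiny projection neuron list (54063). Striatum WT replicate 5 was highest for the cortical projection neuron list (11886) and for Unc13b (1054) and lowest for the spiny projection neuron list (192551).

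For Rimbp2, Striatum Shank3-HM replicate 2 (6183) lay above 5789 to 5889 in the other 4, which are themselves above every WT and Shank3-HT striatal sample. In the same group, replicate 5 was high for Pclo (9056 against 7736 to 8082) and Erc1 (1386 against 1223 to 1239) and low for Shank3 (4569 against 5883 to 6242), and replicate 1 was high for Unc13b (760 against 587 to 616). Hippocampus Shank3-HT replicate 5 was high for both Bsn (17381 against 14233 to 15107) and Pclo (10943 against 8957 to 9398). Single samples also stood apart for Rims1 in Hippocampus WT replicate 1 (3786 against 5051 to 5448), Rims3 in Hippocampus Shank3-HM replicate 5 (1558 against 1618 to 1642) and Striatum WT replicate 3 (2299 against 2518 to 2556), and Erc2 in Cortex Shank3-HM replicate 1 (4354 against 3518 to 3707).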

How the results depend on the processing

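In the 6 mutant comparisons and the 3 interactions, 0 of the 9 genes passed under every alternative run, and their median log2 fold changes in the mutant comparisons and the Rimbp2 value of the Shank3-HM striatum moved by less than the replicate spread, although 2 of the 6 medians changed sign on leaving out 1 sample (-0.032 to 0.038 in the Shank3-HT cortex and -0.040 to 0.058 in the Shank3-HM hippocampus). Dropping the trend, changing the filter, blocking by replicate number and restricting a fit to both groups of a comparison cannot change these fold changes. That they stayed under those runs was fixed in advance. Leaving out 1 sample at a time, the WT region counts ran from 7 to 9 for striatum against cortex and from 6 to 8 for striatum against hippocampus, and stayed at 9 for hippocampus against cortex. Leaving out 1 sample at a time moved the Rimbp2 log2 fold change between 0.49 and 0.57. The depth is unknown, so that no limit on small differences can be given from counts. Signs of genes near 0 turned in places, none of them past the threshold and with the cause not tested. Quantile normalization gave 0.021 for Bsn and 0.0064 for Unc13a in the Shank3-HT cortex, 0.025 for Bsn in the Shank3-HM hippocampus and -0.0086 for Pclo in the Shank3-HM effect of striatum against hippocampus. Rescaling to an equal total gave 0.0022 for Unc13a in the Shank3-HT cortex and 0.0069 for Bsn in the Shank3-HM hippocampus. Leaving out both libraries with mixed region markers gave -0.020 for Rims3 in the effect of striatum against cortex and 0.030 for Rims1 in that of striatum against hippocampus.

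Leaving out 1 sample at a time, the values of single genes that changed sign ranged as follows. In the Shank3-HT cortex they were -0.032 to 0.048 for Rims1, -5.9e-05 to 0.049 for Rims2, -0.041 to 0.011 for Bsn and -0.057 to 0.038 for Unc13a, and in the Shank3-HM cortex -0.050 to 0.037 for Rims2. In the Shank3-HT hippocampus they were -0.023 to 0.11 for Rims1, -0.025 to 0.047 for Bsn, -0.040 to 0.080 for Erc1 and -0.041 to 0.065 for Unc13a. In the Shank3-HM hippocampus they were -0.061 to 0.071 for Rims1, -0.025 to 0.012 for Bsn, -0.059 to 0.058 for Pclo, -0.040 to 0.081 for Erc1 and -0.043 to 0.052 for Unc13a. In the Shank3-HT striatum they were -0.14 to 0.025 for Rims1, -0.022 to 0.059 for Rims3, -0.12 to 0.0035 for Erc2, -0.11 to 0.093 for Unc13b and, with no test, -0.024 to 0.078 for Rimbp2, and in the Shank3-HM striatum -0.064 to 0.064 for Rims1. For the Shank3-HM effect they were, striatum against cortex, -0.030 to 0.14 for Rims3, -0.027 to 0.090 for Unc13a and -0.15 to 0.062 for Unc13b, cortex against hippocampus, -0.12 to 7.2e-05 for Pclo, -0.036 to 0.084 for Erc1 and -0.067 to 0.026 for Erc2, and striatum against hippocampus, -0.099 to 0.045 for Rims1 and -0.016 to 0.10 for Pclo. Between WT striatum and WT hippocampus Unc13a ran from -0.089 to 0.038. WT region calls lost in some of these fits were Rims2 (-0.18 to -0.13) and Erc2 (0.16 to 0.22) between striatum and cortex, and Pclo (-0.26 to -0.14) and Erc2 (-0.26 to -0.19) between striatum and hippocampus.

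Rims2 between striatum and cortex also missed the threshold under quantile normalization (-0.13, adjusted p = 0.07024, limma) and Erc2 with an equal total (0.16, adjusted p = 0.07701, limma). The omission of 2 libraries together, and that of Striatum WT replicate 5 from the levels per kb, were chosen after seeing the data.

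The labels number the replicates 1 to 5 in every group without saying what the number stands for. Same-numbered samples of different genotypes correlated between -0.13 and 0.15 in their deviations from the group means. Those of striatum and hippocampus of 1 genotype correlated between 0.038 and 0.20, all 15 above 0 and 8 over 0.1, against a mean of -0.028 for other numbers, and 12 of 15 striatal samples correlated best with their own number in the hippocampus. With the cortex, 8 of 15 striatal and 8 of 15 hippocampal samples correlated best with their own number, 11 and 9 of the 15 pairs were above 0 and 4 in each case over 0.1. This hints that numbers may be shared between regions, but not every pair passed 0.1 and no label says so, so the region fits treat the samples as independent. With samples of 1 genotype and number as a replicate block, 9, 9 and 8 of the 9 genes passed in the WT region contrasts as without it. With the replicate number as a block, 0 of the 9 genes passed in any mutant comparison, and the calls among all genes in the Shank3-HM striatum went from 30 to 39. Every group holds the numbers 1 to 5, so this block cannot change a fold change, that of Rimbp2 included.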
